A study of Salmo trutta with 24 samples.

Results

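CYP1 enzymes and the aryl hydrocarbon receptor (AHR) genes were followed in the liver of 24 mature male brown trout (Salmo trutta). The members were selected on the annotation text of the assembled transcripts (contigs), which had to name a family 1 cytochrome P450, an aryl hydrocarbon receptor or the TCDD-inducible poly(ADP-ribose) polymerase, and 19 transcripts of the receptor's nuclear translocator were left out by that rule. The members described here are 28 of 66359 transcripts, carrying 5 of 11587 annotation identifiers. They were cyp1a (7 contigs), the receptors ahr2 (14), ahr1a (1) and ahr1b (3), and tiparp (3). No transcript was annotated as CYP1B, CYP1C, CYP1D or the AHR repressor (0 transcripts each), and 23 of the 28 member transcripts were listed in all 6 tables. Zebrafish identifiers supplied the names, so a trout duplicate of a gene carries the same name as its partner.

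The groups were 6 unexposed control fish and sets of 3 fish each held at E2 concentrations of 1.9 ng/l, 18.1 ng/l or 34.4 ng/l, or at linuron concentrations of 1.7 µg/l, 15.3 µg/l or 225.9 µg/l. E2 is the estrogen 17β-estradiol, and linuron is a phenylurea herbicide. All were adult males, with an exposure of 4 days in the sample characteristics and the study's methods but of 14 days in the labels' treatment protocol. The study's methods give 1 tank per E2 concentration and do not describe the linuron tanks. The effect of a concentration and that of its tank cannot be told apart. The labels do not say which control fish came from which of the duplicate control tanks. The same 6 controls served in all comparisons.

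The AHR is a ligand-activated transcription factor of the basic helix-loop-helix PAS family. Without ligand it sits in the cytosol with heat shock protein 90 and its cochaperones. After binding a planar aromatic ligand it enters the nucleus, pairs with its nuclear translocator ARNT and binds response elements upstream of its target genes. CYP1A, which oxidizes such compounds, is the best known target and is widely used in fish liver as a marker of exposure. TIPARP, itself an AHR target in mammals, modifies the receptor and limits its activity. Fish carry receptors of the AHR1 and AHR2 types, and in zebrafish Ahr2 mediates most of the response to dioxins.

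The libraries held between 3894392 and 10736246 counts. Levels are given as counts per 1000000 (CPM) on libraries scaled together by TMM, and the level of a gene is the sum of its contigs that all tables listed. The log2 fold change and test of a gene instead sum all its contigs listed in that comparison, so they can differ from ratios of levels. At 225.9 µg linuron/l this adds contig 7 of cyp1a and further ahr2 contigs, which could enter through the group where they were high. The summed CPM of 10 hepatocyte markers was between 59407 and 141982 in every fish. Control 1 and fish 2 and 3 at 15.3 µg linuron/l stood farthest from the other fish, with median distances of 4.39, 4.80 and 4.38 on the log2 scale over the 500 most different transcripts, against 3.63 to 4.21 for the other 21 fish. Member values at 15.3 µg linuron/l, and the tiparp values that control 1 moves, are given with and without them.

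cyp1a was far higher in fish exposed to 225.9 µg linuron/l than in any other fish. Its level was 4661, 3744 and 6044 CPM in the 3 exposed fish, against 3.53, 11.98, 6.76, 10.5, 14.6 and 20.8 CPM in the 6 control fish. The groups did not overlap: the lowest exposed fish was 180-fold above the highest control, and 23.5-fold above the highest of all 21 other fish. The mean was 4816 CPM in exposed fish and 11.4 CPM in control fish, a ratio of 424 ± 102 (SD over the 3 exposed fish, divided by the control mean). The log2 fold change over the controls was 8.72 (SE 0.49). Because cyp1a was selected with its behaviour in these fish already known, this contrast is a description and carries no test.

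In terms of the library, the 7 cyp1a contigs took 0.524%, 0.401% and 0.687% of all counts in the 3 fish at 225.9 µg linuron/l, with 95% Wilson intervals of 0.520 to 0.529%, 0.397 to 0.406% and 0.681 to 0.693%. In the 6 control fish they took between 0.000302% and 0.00198%, which is 21 to 153 counts per fish. Such intervals cover counting error only. By summed counts, cyp1a ranked 21, 26 and 15 among 10954 annotations in the exposed fish, against ranks of 2471 to 7097 in the controls. No other annotation rose by as much: cyp1a had the highest log2 fold change of all annotations in this comparison, ahead of a second one at 4.84 (SE 0.66), described below.

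**Figure D1:**
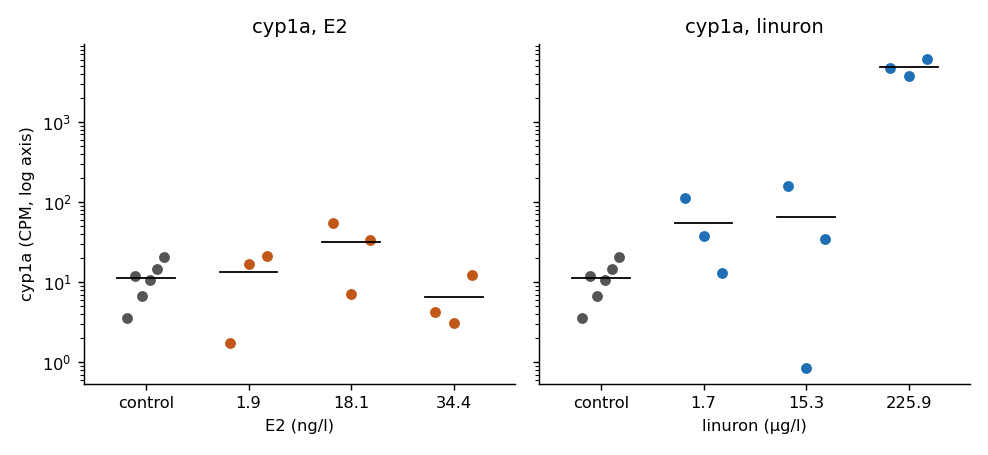
Summed cyp1a level (CPM, log axis) of each fish by concentration of E2 (left) and linuron (right); points are fish, horizontal lines are group means, and the same 6 control fish are drawn in both panels. The 3 fish at 225.9 µg linuron/l lie between 3744 and 6044 CPM, while the other 21 fish reach at most 159 CPM.

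At the lower linuron concentrations cyp1a differed widely between fish of the same concentration. Fish exposed to 1.7 µg linuron/l had 114, 37.2 and 12.8 CPM, and fish exposed to 15.3 µg linuron/l had 159, 0.838 and 34.5 CPM. Thus 4 of these 6 fish lay above all controls, 1 lay among them and 1 lay below all of them. The log2 fold change over the controls was 2.20 (SE 0.56) at 1.7 µg linuron/l and 2.496 (SE 0.89) at 15.3 µg linuron/l. The first fish decided much of each value, since without it the log2 fold change was 1.101 at 1.7 µg linuron/l and 0.59 at 15.3 µg linuron/l. Leaving out the 3 libraries that stood apart gave 3.60 at 15.3 µg linuron/l, from 1 exposed fish. The highest fish of a group exceeded the lowest by 8.86-fold at 1.7 µg linuron/l, 190-fold at 15.3 µg linuron/l and 1.61-fold at 225.9 µg linuron/l, compared with 5.91-fold among the controls.

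Exposure to E2 gave no common direction. Fish at 1.9 ng E2/l had 1.75, 17.0 and 21.2 CPM of cyp1a. The next concentration, 18.1 ng E2/l, gave 54.4, 7.18 and 33.5 CPM, and the highest, 34.4 ng E2/l, gave 4.26, 3.09 and 12.2 CPM. All 3 groups overlapped the controls, with 3 of the 9 fish above the highest control and 2 below the lowest. The log2 fold changes were 0.23 (SE 0.59), 1.46 (SE 0.54) and -0.95 (SE 0.52) in this order of concentration. Single fish moved all of them: the log2 fold change was -0.27 without fish 3 at 1.9 ng E2/l and 0.74 without its fish 1, 0.81 without fish 1 at 18.1 ng E2/l, and -1.76 without fish 3 or -0.62 without fish 2 at 34.4 ng E2/l.

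All 7 cyp1a contigs belonged to 1 assembly component, and their rises at 225.9 µg linuron/l were close to each other. By contig the log2 fold changes were between 8.43 (SE 0.48) and 9.62 (SE 0.57). Contig 7, the one with the highest value, was listed only in the table of this concentration, at 392 ± 110 CPM (SD, n = 3) in exposed fish and 0.438 ± 0.419 CPM (SD, n = 6) in control fish. The same contigs held most of the reads of the other 6 in both groups. The most abundant, contig 1, held 27.5 to 28.3% of their counts in the exposed fish and 31.3% of 476 counts in the pooled controls. Contig 2 held 24.6 to 25.1% in the exposed fish and 24.6% in the controls, and contig 6 held 13.0 to 13.5% in the exposed fish and 9.45% in the controls.

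The same component held 3 further contigs that carried no annotation and so were not members. Contig 8 had 414 ± 232 CPM in fish at 225.9 µg linuron/l and 0.763 ± 0.448 CPM in controls (SD, n = 3 and n = 6), a log2 fold change of 9.01 (SE 0.49). Contig 9 had 76.1 ± 65.2 CPM in these exposed fish and 0.289 ± 0.479 CPM in controls. Contig 5 had 4.16 ± 1.85 CPM in the exposed fish and 0 counts in all 6 controls. With them included, the component took 0.573%, 0.422% and 0.771% of the counts in the 3 exposed fish. Of the 57544 transcripts tested at this concentration, the 8 with the highest log2 fold changes were the 7 cyp1a contigs and contig 8.

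**Figure D2:**
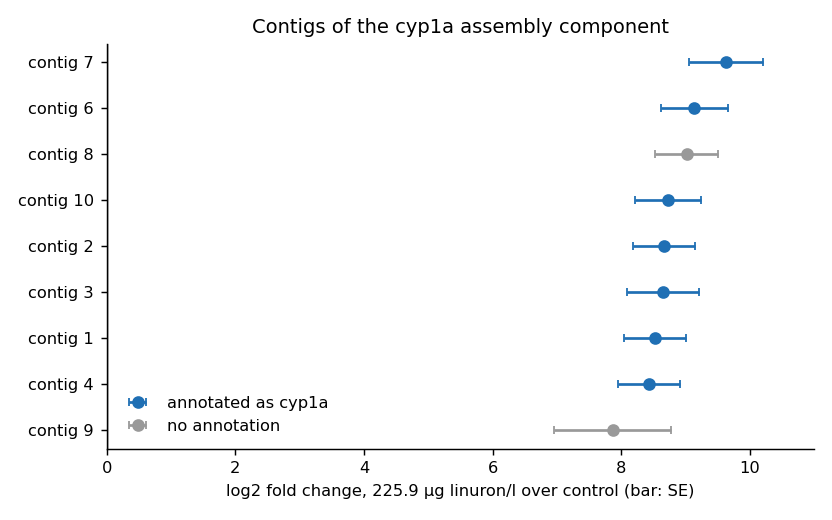
Log2 fold change of 225.9 µg linuron/l over control for the contigs of the cyp1a assembly component, with standard errors; blue points carry the cyp1a annotation and grey points carry none. Contig 5 is left out because its controls had 0 counts, and the cyp1a contigs lie between 8.43 and 9.62.

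By the gene-wise test (edgeR's quasi-likelihood test, Benjamini-Hochberg adjusted p under 0.05 over all transcripts of a table), 7 of the 26 member transcripts listed at 225.9 µg linuron/l were called. These were the 7 cyp1a contigs, all higher, and nothing is read from that count because cyp1a was chosen by its known response. Over all 57544 transcripts 88 were called (0.153%), 71 of them higher (0.123%). On counts summed per annotation, 1 of the 5 members was called, again cyp1a, beside 79 of 10954 annotations (0.721%).

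None of the other 4 annotations was called in any of the 6 comparisons. At 34.4 ng E2/l 0 of 25 member transcripts were called, where 1338 of 59151 transcripts (2.26%) and 382 of 11053 annotations (3.46%) were. At the lower concentrations, which were 1.9 or 18.1 ng E2/l and 1.7 or 15.3 µg linuron/l, the quasi-likelihood test called no transcript and no annotation at all (0% in each), while 2255, 1448, 3589 and 2698 transcripts and 569, 297, 843 and 658 annotations had an unadjusted p under 0.05. For those 4 groups edgeR's exact test called 3, 2, 83 and 16 transcripts and DESeq2 called 11, 1, 176 and 6. Across the 24 tests of the 4 annotations, 5 had an unadjusted p under 0.05. Of these, 3 were at 225.9 µg linuron/l, where 12% of all annotations were under 0.05 unadjusted, 1 at 34.4 ng E2/l, where 17.6% were, and 1 at 15.3 µg linuron/l, where 6.07% were. Over the 24 tests the lowest adjusted p was 0.252 (edgeR quasi-likelihood).

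Of the receptors, ahr2 was the most abundant. It had 38.8, 39.3 and 40.9 CPM in fish exposed to 225.9 µg linuron/l, against 14.9, 27.1, 19.8, 29.6, 29.7 and 25.5 CPM in control fish. All 3 exposed fish lay above all 6 controls, as they did for 456 of 10302 annotations (4.43%). The ratio of the means was 1.62 ± 0.0452, and the log2 fold change of 0.65 (SE 0.22) did not pass the threshold (adjusted p = 0.252, edgeR quasi-likelihood). The lowest control value was that of control 1, a library that stood apart. Over the omissions of 1 fish the log2 fold change was between 0.54 and 0.72.

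In fish exposed to 1.7 µg linuron/l ahr2 was at 41.4, 33.1 and 33.8 CPM, likewise above every control. Such a separation was found for 218 of the annotations (2.12%), and the log2 fold change was 0.50 (SE 0.24, adjusted p = 0.653, edgeR). It was between 0.40 and 0.58 over the omissions of 1 fish. Fish exposed to 1.9 ng E2/l had 30.1, 32.5 and 32.8 CPM, also above every control, where 116 annotations (1.13%) were, with a log2 fold change of 0.37 (SE 0.23, adjusted p = 0.918, edgeR). At 18.1 ng E2/l its levels of 20.0 to 38.5 CPM, and at 34.4 ng E2/l those of 25.5 to 26.7 CPM, overlapped those of the controls.

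At 15.3 µg linuron/l the first fish had 30.9 CPM of ahr2 and the other two had 12.4 and 13.4 CPM. These last values and that of control 1 were the 3 lowest of all 24 fish, and they came from the 3 libraries that stood apart. The log2 fold change was -0.41 (SE 0.35) with all fish and 0.22 without these libraries. Whether the state of those libraries bears on the receptor was not tested.

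The 12 ahr2 contigs listed in all tables averaged between 0.951 and 3.98 CPM over the 24 fish. At 225.9 µg linuron/l 3 of them had all exposed fish above all controls. The proportion of all transcripts so separated was not computed. Contigs of 1 component can share reads, so nothing is read from this count. Those 3 belonged to a component that, by the first part of the contig names, also holds contigs annotated as ariadne homolog 2 and cullin 9. Whether these lie in the same part of the component was not checked. How reads were divided among those annotations is uncertain. The most abundant contig in controls, from this component, had 4.14, 7.89 and 5.58 CPM in the exposed fish, against 2.01, 3.41, 3.14, 3.30, 3.78 and 4.11 CPM in the controls. Its log2 fold change was 0.79 (SE 0.33, adjusted p = 0.512, edgeR).

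The AHR1-type receptors were rare. ahr1a had 5.67, 1.11 and 4.29 CPM in fish exposed to 225.9 µg linuron/l, against 1.85, 1.06, 1.21, 1.05, 2.43 and 1.13 CPM in controls. The exposed group thus held 2 fish above all controls and 1 among them, and its log2 fold change was 1.28 (SE 0.51, adjusted p = 0.337, edgeR). At 15.3 µg linuron/l its contig had 4 counts in the first fish and 0 in the other two, whereas the 6 controls together had 58. All 3 fish lay below all controls, as for 131 annotations (1.27%), and the log2 fold change was -2.66 (SE 0.97, adjusted p = 0.78, edgeR). It was -1.16 without the 3 libraries that stood apart. Without the first fish both remaining fish had 0 counts, and the fitted value of -6.25 (adjusted p = 0.0824, edgeR) then depends on the prior count and is no estimate of a fold.

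ahr1b had 2.21, 1.94 and 4.57 CPM at 225.9 µg linuron/l, against 0.671, 0.822, 0, 1.95, 1.49 and 1.13 CPM in controls. The lowest exposed fish was level with the highest control, and the log2 fold change was 1.41 (SE 0.64, adjusted p = 0.405, edgeR). The receptors ahr2, ahr1a and ahr1b thus had positive log2 fold changes at this concentration, none of which was called. The standard errors of ahr1a and ahr1b in this comparison were above 0.5 on the log2 scale. At 15.3 µg linuron/l the log2 fold change of ahr1b was -0.94 (SE 1.15) with all fish and 0.46 (SE 1.17) without the 3 libraries that stood apart, and neither was called.

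**Figure D3:**
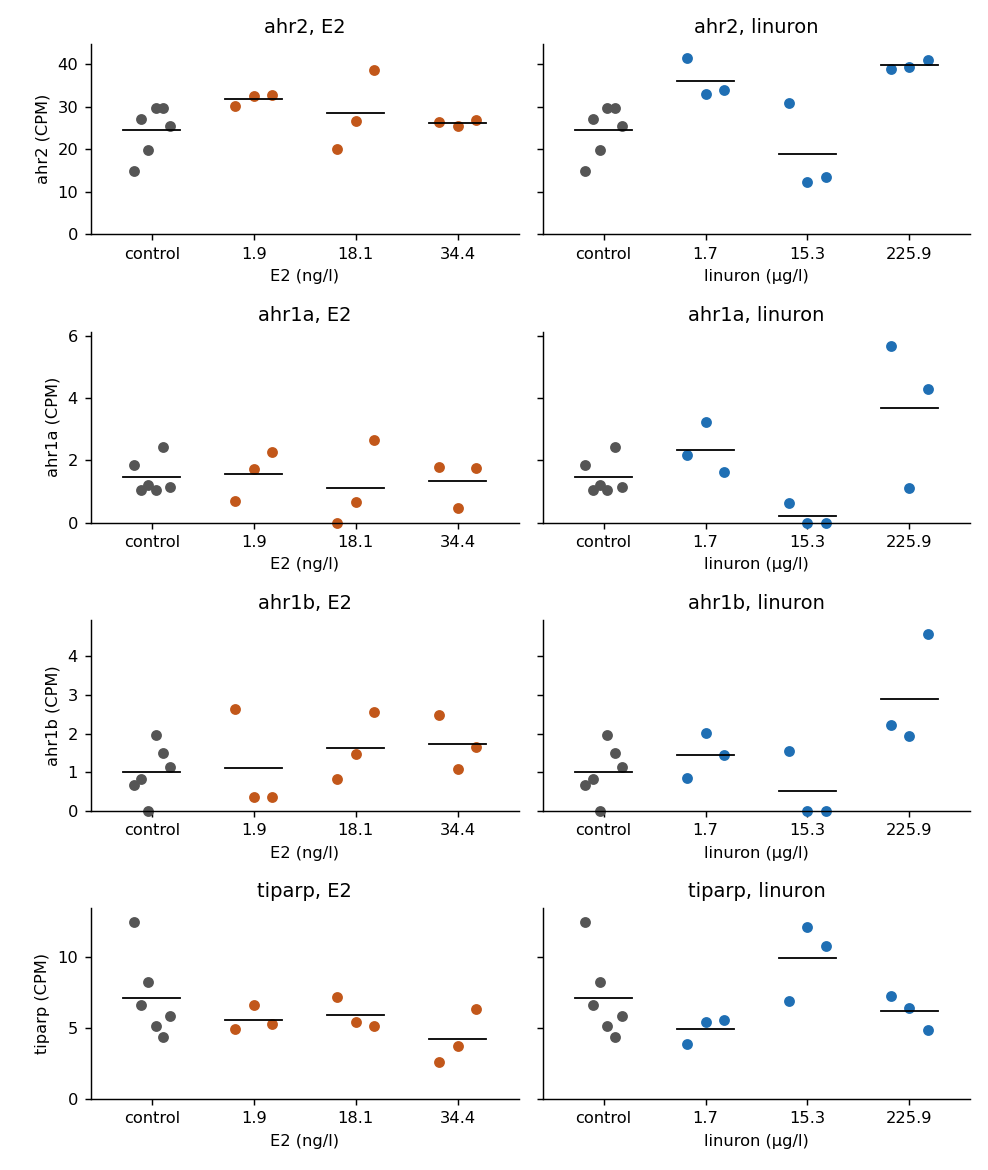
Level (CPM) of ahr2, ahr1a, ahr1b and tiparp in each fish by concentration of E2 (left) and linuron (right); points are fish, lines are group means, and the same controls appear in both columns. At 225.9 µg linuron/l ahr2 lies between 38.8 and 40.9 CPM, above the control maximum of 29.7 CPM, while tiparp overlaps the controls.

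tiparp, at 225.9 µg linuron/l, had 7.21, 6.37 and 4.86 CPM in the exposed fish, against 12.4, 6.58, 8.21, 5.10, 4.32 and 5.81 CPM in controls, and all exposed fish lay within the range of the controls. The log2 fold change was -0.25 (SE 0.34, adjusted p = 0.829, edgeR), and -0.0075 without control 1. At 34.4 ng E2/l it had 2.61, 3.68 and 6.33 CPM, with 2 of 3 fish below all controls, a log2 fold change of -0.87 (SE 0.39) and an adjusted p of 0.258 (edgeR), and without control 1 the log2 fold change was -0.63.

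The highest tiparp values of the 24 fish, 12.4, 12.1 and 10.8 CPM, were those of control 1 and of fish 2 and 3 at 15.3 µg linuron/l. At 15.3 µg linuron/l the log2 fold change of tiparp was 0.43 (SE 0.34) with all fish and 0.21 (SE 0.45) without these 3 libraries, and neither was called. The same 3 fish had the lowest ahr2 values. The opposite order of the 2 genes in these libraries is a description of 3 fish, and its source was not tested.

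Across the members other than cyp1a, 16 of 19 transcripts listed at 225.9 µg linuron/l had a positive log2 fold change, with a median of 0.68 beside 0.01 over all 57544 transcripts. The 19 include 2 ahr2 contigs that other tables did not all list, and so could enter through the group where they were high. Of the 17 contigs that every table listed, 14 were positive, with the same median of 0.68, and being listed still depends on the counts. At 1.7 µg linuron/l 13 of 17 were positive, with a median of 0.41 beside 0.01 over all transcripts, and at 15.3 µg linuron/l 6 of 17 were, with a median of -0.37 beside -0.03. Without the 3 libraries that stood apart 12 of these 17 were positive at 15.3 µg linuron/l, with a median of 0.21 beside -0.07, from 1 exposed fish. The controls are shared, and contigs of 1 gene share reads, so these counts are no independent evidence of a direction. With E2 the median was 0.27 at the lowest concentration, 0.07 at the middle one and 0.09 at the highest, the last being -0.18 over the contigs listed in every table.

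**Figure D4:**
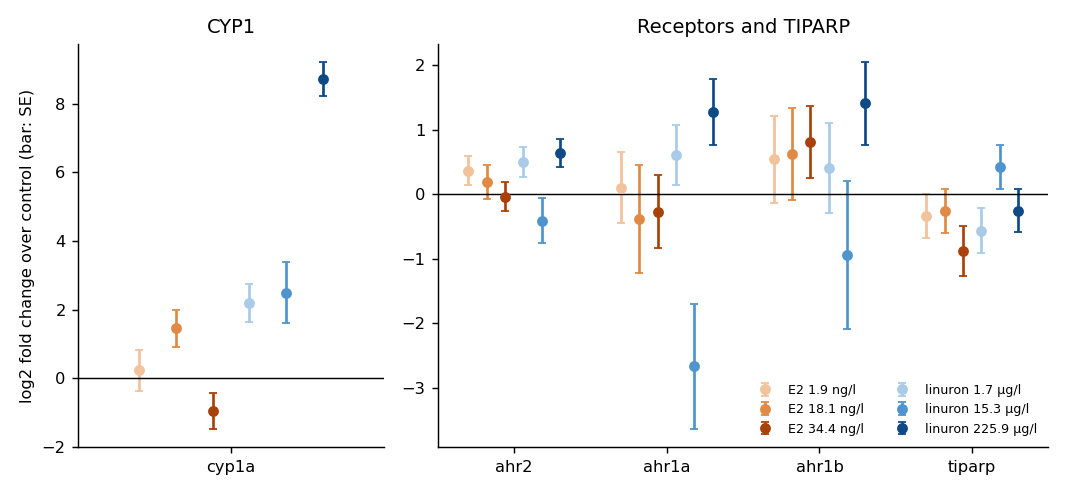
Log2 fold change of each exposed group over the 6 controls with its standard error, from counts summed per annotation, for cyp1a (left) and the other members (right, on its own scale); orange shades are E2 and blue shades linuron, darker at higher concentration. cyp1a at 225.9 µg linuron/l stands at 8.72, while the other members reach at most 1.41 in any group.

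Genes that work with the receptor were taken from a list of its partners and chaperones. Of 5 measured, 2 rose at 225.9 µg linuron/l, where 0.721% of all annotations were called, and none was called in another comparison. This list and those that follow were chosen with earlier results of these fish known, so their counts are a description. The first was hsp90aa1.2, an alpha form of heat shock protein 90, with 68.9, 34.3 and 61.8 CPM in exposed fish, against 2.69, 6.22, 4.59, 0.300, 0 and 0 CPM in controls. All exposed fish lay above all controls, as for 4.43% of 10302 annotations. The log2 fold change of 4.84 (SE 0.66, adjusted p = 0.00619, edgeR) was the second highest of all annotations. The second was hsp90ab1, the more abundant cytosolic form, with 2319, 1956 and 1785 CPM in exposed fish, against 430, 412, 913, 937, 478 and 339 CPM in controls.

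Each exposed fish exceeded every control in hsp90ab1, as for 4.43% of annotations. The log2 fold change was 1.73 (SE 0.32, adjusted p = 0.0301, edgeR). The call was lost without control 2, 5 or 6 or without any 1 of the exposed fish, with the highest adjusted p, 0.228, without the first exposed fish (edgeR). At 1.7 µg linuron/l hsp90ab1 had 1989, 1077 and 900 CPM, not called, and the first of these fish was also the one with the most cyp1a in its group. The other partners did not pass the test at 225.9 µg linuron/l: the receptor's dimerization partner arnt had a log2 fold change of 0.15 (SE 0.20, adjusted p = 0.825, edgeR), arnt2 one of 0.23 (SE 0.35) and ptges3a, which encodes the cochaperone p23, one of 0.45 (SE 0.26). The list's median was 0.45, beside -0.00404 over all annotations.

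Of 7 measured genes that are AHR targets in mammals outside the CYP1 family, 0 were called at 225.9 µg linuron/l. Over all annotations 0.721% were called there, so 0 of 7 says little. Of the 7, 3 had an unadjusted p under 0.05 (edgeR quasi-likelihood), beside 12% of all annotations. The glucuronosyltransferase ugt1ab had a log2 fold change of 1.19 (SE 0.29, adjusted p = 0.10, edgeR), the glutathione transferase gsta.1 one of 0.84 (SE 0.22, adjusted p = 0.122, edgeR) and gstp1 one of 0.78 (SE 0.28, adjusted p = 0.278, edgeR). The quinone reductase nqo1 was at -1.32 (SE 0.96) and did not pass the test either, with few counts (means of 0.762 CPM exposed and 1.91 CPM in controls). The remaining genes of this list lay between -0.32 and 0.24. The median of the list was 0.24, beside -0.00404 over all annotations. At 34.4 ng E2/l, where 3.46% of all annotations were called, 1 of the 7 fell: gsta.1 had 161, 162 and 191 CPM in exposed fish, against 254, 259, 404, 328, 222 and 251 CPM in controls. Its log2 fold change was -0.87 (SE 0.22, adjusted p = 0.0494, edgeR), which lay at the threshold. The call was kept in only 1 of 4 other scalings and models, and was lost without any 1 fish other than control 1. With library totals in place of TMM the log2 fold change was -0.61 (adjusted p = 0.187, edgeR).

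P450 enzymes take electrons from P450 oxidoreductase or cytochrome b5. Of 9 annotations on this list, cyb5a, which encodes cytochrome b5, was the only one called at 225.9 µg linuron/l, against 0.721% of all annotations. It had 393, 288 and 457 CPM in exposed fish, against 197, 142, 153, 210, 165 and 194 CPM in controls, a log2 fold change of 1.05 (SE 0.20, adjusted p = 0.0395, edgeR). All exposed fish lay above all controls, as for 4.43% of 10302 annotations. The call was lost without control 2, 3, 5 or 6 or exposed fish 1 or 3, with an adjusted p of up to 0.254 (edgeR).

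At 34.4 ng E2/l 1 of the 9 fell, beside 3.46% of all annotations called. The more abundant of 2 annotations for P450 oxidoreductase had 119, 123 and 116 CPM in exposed fish, against 363, 212, 241, 201, 222 and 301 CPM in controls, a log2 fold change of -1.24 (SE 0.23, adjusted p = 0.0104, edgeR). The call was lost without any 1 of the exposed fish (adjusted p up to 0.0917, edgeR). The other annotation was rare, at 2.14 to 3.40 CPM in exposed fish and 0.671 to 1.95 CPM in controls, with a log2 fold change of the opposite sign, 1.12 (SE 0.45), which did not pass the test (adjusted p = 0.209, edgeR). In the same fish the summed hepatocyte markers were at 59407 to 68927 CPM, against 77530 to 126146 CPM in controls, and 2 of the 10 markers were called lower. In bulk liver, fewer cells of a type and less RNA per cell cannot be told apart, and the part of the markers in this value was not tested.

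Of 11 annotations of target genes of NRF2, the regulator of the oxidative stress response, 1 rose at 225.9 µg linuron/l, beside 0.721% of all annotations called, and none was called in another comparison. This was gclc, the catalytic subunit of the rate-limiting enzyme of glutathione synthesis. It had 80.1, 86.5 and 53.6 CPM in exposed fish, against 31.7, 22.2, 23.2, 27.0, 19.9 and 29.4 CPM in controls. The log2 fold change was 1.46 (SE 0.21, adjusted p = 0.00683, edgeR), and without the first exposed fish the adjusted p was 0.0694 (edgeR). Its modifier subunit gclm had a log2 fold change of 1.13 (SE 0.26, adjusted p = 0.0795, edgeR) and was not called.

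**Figure D5:**
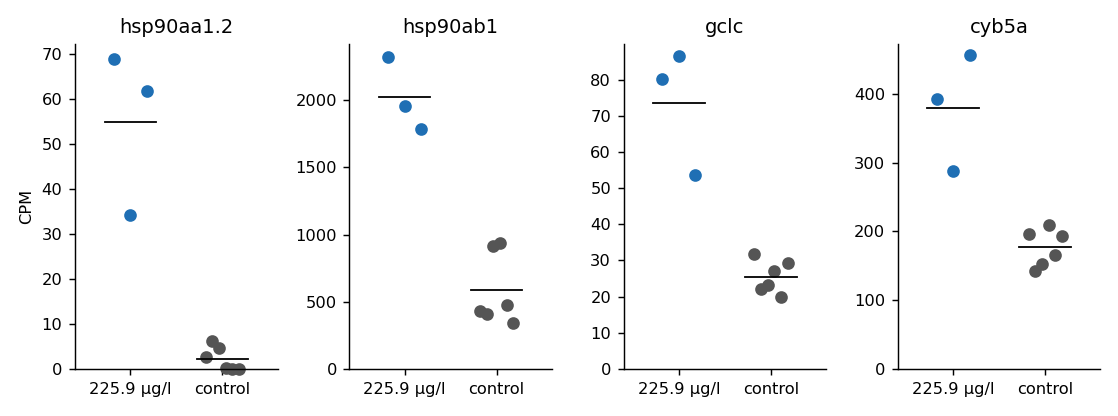
Level (CPM) in each fish exposed to 225.9 µg linuron/l (left in each panel) and in each control fish (right), for the 4 listed genes called at this concentration; horizontal lines are group means. No panel has an exposed fish within the range of the controls. All exposed fish lay above all controls for 4.43% of 10302 annotations, and these genes were drawn because they were called.

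Markers of other liver cells were checked beside these results. None of the 7 endothelial, 2 erythrocyte, 8 leukocyte or 5 biliary markers was called in any comparison, and none was at 0 in all fish. Over all annotations, 0.721% were called at 225.9 µg linuron/l, 3.46% at 34.4 ng E2/l and none in the other groups. Short lists with 0 calls therefore say little. At 225.9 µg linuron/l the summed biliary markers were at 668 to 1103 CPM, against 422 to 577 CPM in controls, and the summed erythrocyte markers were at 441 to 1502 CPM, against 147 to 618 CPM in controls. Endothelial sums of 44.3 to 67.8 CPM and leukocyte sums of 291 to 559 CPM overlapped the controls, which had 44.2 to 64.7 CPM and 264 to 563 CPM. Summed hepatocyte markers were at 61152 to 100976 CPM (mean 75143) at 225.9 µg linuron/l and 68254.5 to 87961 CPM (mean 75307) at 1.7 µg linuron/l. Controls had 77530 to 126146 CPM (mean 102354). In both linuron groups 0 of the 10 hepatocyte markers were called, beside 0.721% of all annotations at 225.9 µg linuron/l and none at 1.7 µg linuron/l. Unadjusted p was under 0.05 (edgeR quasi-likelihood) for 2 of the 10 markers at 225.9 µg linuron/l, beside 12% of all annotations. At 1.7 µg linuron/l it was under 0.05 for 4 of the 10, beside 7.71% of all annotations. Whether the hepatocyte, biliary or erythrocyte difference has a part in the values of cyp1a and its partners was not tested. The estrogen response list, with vitellogenins and egg envelope proteins, rose at 34.4 ng E2/l in 9 of 9 annotations, beside 3.46% of all annotations called. The study had reported these genes among the most upregulated at that concentration, so the count is a description. Only 3 of the 9 were listed at 225.9 µg linuron/l, where 0 were called. The rest could enter through the group where they were high.

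Among 6361 annotations of at least 5 CPM outside the members, the pattern most like that of cyp1a over the 24 fish was that of FK506 binding protein 4, a cochaperone of heat shock protein 90, with a Pearson correlation of 0.87 of the log2(CPM + 1) values. It was followed by si:dkey-205h13.1 (0.86), homogentisate 1,2-dioxygenase, an enzyme of tyrosine breakdown (0.84), tsukushi (0.83) and the secreted chaperone clusterin (0.83). The 3 fish at 225.9 µg linuron/l carried much of this likeness. Over the other 21 fish the correlations were 0.59, 0.63, 0.56 and 0.34 in this order for the first 4, and -0.04 for clusterin.

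The 5 patterns least like that of cyp1a had negative correlations. An oligosaccharyltransferase complex subunit, which acts in N-glycosylation, had a correlation of -0.83 over 24 fish and -0.74 over the 21. The values were -0.82 and -0.64 for SAR1 homolog B, a GTPase of vesicle budding from the endoplasmic reticulum, and -0.79 and -0.78 for SEC11 homolog A, a signal peptidase subunit. Testis expressed 264 had -0.80 and -0.68, and cytochrome c oxidase subunit VIb polypeptide 1 had -0.79 and -0.25. Among the members themselves, the correlation with cyp1a over 24 fish was 0.56 for ahr2, 0.47 for ahr1a, 0.43 for ahr1b and -0.04 for tiparp. Over the 21 fish it was 0.43, 0.18, 0.06 and -0.10 in this order. These are descriptions over fish of which several shared a tank.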

How the data were processed

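The authors assembled pooled reads with Trinity into 1 set of contigs, which were annotated by Blastx against Ensembl peptides (zebrafish first). Reads of each fish were mapped to them with Bowtie2 (2.1.0), 1 best hit per read, and counted with SAMtools (0.1.18). The deposited values used here are counts of reads per contig, not normalized by the authors. The tables also hold the authors' fold changes, p-values and FDR, which were not used. A single best hit makes the division of reads among contigs of a gene uncertain, so counts were also summed per annotation.

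Differences of each exposed group (3 fish) from the 6 controls were tested by edgeR 4.0.16 under R 4.3.3, using TMM scaling, the quasi-likelihood test and Benjamini-Hochberg adjustment over the whole table (threshold 0.05). Transcripts needed a count of 1 or more in 3 or more fish, which removed none, since the deposited tables already list fewer: of 65717 transcripts with a count in 3 or more controls, 15436 were not listed in every table. CPM used TMM factors over the 50282 transcripts of all 6 tables. Alternatives were the exact test of edgeR (prior.df 10), DESeq2 1.42.0, other scalings and filters, 1 model of 7 groups, a replicate block and the omission of each fish. Tables were summarised with Python 3.11.15, pandas 2.3.3, numpy 2.4.6 and scipy 1.17.1. The tests were tried on simulated data.

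1 annotation that met the rule is not reported here. Members and gene lists were chosen with earlier results of these data known. Named list genes are those with an adjusted p under 0.05 in a comparison. The list genes named without passing it (arnt, arnt2, ptges3a, ugt1ab, gstp1, nqo1, gclm) were chosen after their values were seen. Genes most like cyp1a are the 5 highest and 5 lowest correlations. The libraries, of 3894392 to 10736246 counts, leave genes near 1 CPM with few counts per fish. No contig sequences or genome coordinates were used here. The labels do not say that the fish shared batches. With 1 tank per E2 concentration, and linuron tanks that the study's methods do not describe, p-values measure the spread between fish only.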

Additional observations from a re-analysis of the deposited data

How the results depend on the processing

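The count of member transcripts called at 225.9 µg linuron/l was 7 in every setting except the model of all 7 groups, which could only hold 6 of them. All are cyp1a contigs, whose response chose them, so this is no sign of stability. At 1.7 µg linuron/l DESeq2 and edgeR's exact test each called 1 member transcript where the quasi-likelihood test called 0. Without the 3 libraries that stand apart, a choice made after seeing the data, 1 exposed fish remained at 15.3 µg linuron/l. That fish was assumed to vary like the controls. The log2 fold change of cyp1a there was then 3.60 in place of 2.496, and that of ahr2 was 0.22 in place of -0.41. Over the omissions of 1 fish, the log2 fold change of cyp1a at 225.9 µg linuron/l was between 8.50 and 8.98. In the other groups it was between -0.27 and 0.74 at 1.9 ng E2/l, 0.81 and 1.92 for 18.1 ng E2/l, -1.76 and -0.62 for 34.4 ng E2/l, 1.101 and 2.67 at 1.7 µg linuron/l, and 0.59 and 3.08 at 15.3 µg linuron/l. At 1.9 ng E2/l it was also negative for the most abundant contig alone (-0.21). The cause of these shifts was not tested.

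Counts over all transcripts moved more. At 34.4 ng E2/l 1338 transcripts were called, beside 2109 by the exact test, 2811 by DESeq2 and 723 in the model of 7 groups. At 225.9 µg linuron/l 88 were called, beside 448, 714 and 133, and between 20 and 178 without 1 fish. The filter of at least 1 CPM in 3 fish left the member counts as they were. Omitting the filter was no real alternative, because every listed transcript passed it. Among the listed genes, hsp90aa1.2 kept its call in every setting tried, with adjusted p of 0.00309 to 0.0485 without 1 fish. Other scalings, the replicate block and the model of 7 groups made 4 further settings on sums per annotation. The calls of hsp90ab1, cyb5a and gclc were each kept in 3 of these 4 settings. That of gsta.1 was kept in 1 of 4, and that of P450 oxidoreductase in 4 of 4. The calls of hsp90ab1, cyb5a, gclc, gsta.1 and P450 oxidoreductase were lost without some single fish, with adjusted p up to 0.228, 0.254, 0.0694, 0.239 and 0.0917 in this order.

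Replicate numbers do not pair the fish: correlations of the deviations of same-numbered fish were between -0.71 and 0.34, and no comparison had all 3 above 0.1. With the replicate block the log2 fold change of cyp1a at 225.9 µg linuron/l was 9.49, the counts over all transcripts were 955 at 34.4 ng E2/l, 22 at 1.7 µg linuron/l and 34 at 225.9 µg linuron/l, and the member counts were the same as without the block. Depth was not varied, so its part in the uncalled differences of the rare genes ahr1a and ahr1b was not tested.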
